A study of Homo sapiens with 7 samples.

Results

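Lysosomal glycosidases, sulfatases and lipid hydrolases were examined in HCT116 cells treated with bafilomycin A1. HCT116 is a near-diploid human colon carcinoma line, here in a derivative that carries the histone H2B fused to GFP, and bafilomycin A1 blocks the vacuolar proton pump that acidifies lysosomes. The experiment asked how the transcriptome of these cells responds when lysosomal function is blocked, as 1 of several stress conditions set against aneuploidy. All 4 replicates carried H2B-GFP, were labelled as diploid and received 10 nM bafilomycin A1 for 30 h in medium with 10% serum, and each was measured on 1 single-colour Agilent array from 100 ng of total RNA. The 3 untreated samples of the same line were not analysed here, so the values describe the treated cells and the spread between their replicates, and no change caused by the treatment can be read from them. The labels do not say whether the replicates were separate cultures or give a clone. The study's methods state at least 3 independent biological replicates for statistically evaluated experiments, without naming these arrays. As the labels leave this open, the spread may be partly technical.

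The 32 genes were chosen by name as soluble enzymes of the lysosome, the activator proteins PSAP and GM2A and the membrane acetyltransferase HGSNAT, and the rule uses no measured value. They are 32 of the 36337 gene names on the array and were found there as 42 probes, 24 of the genes with 1 probe and 8 with more. By substrate they fall into 6 classes, namely 9 genes for glycosaminoglycans, 9 for sphingolipids, 6 for glycoproteins and glycogen, 2 for neutral lipids and phospholipids, 3 for proteins and lipid-modified proteins, and 3 for phosphate esters and nucleic acids.

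Lysosomal hydrolases are made in the endoplasmic reticulum, tagged with mannose 6-phosphate in the Golgi apparatus and carried to the lysosome, where the acid made by the proton pump activates them. Each removes 1 kind of end group or bond, so that a missing enzyme leaves its substrate undigested, which is the basis of the lysosomal storage diseases. Many of their genes respond to the transcription factor TFEB and its relatives of the MiT/TFE family, which recognise the palindrome CACGTG, best with GT before it and AC after it.

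The promoters that hold this element are shown first, because it is the shared control element known for lysosomal genes. A stretch from 250 bases before to 50 bases after the start site was given in RefSeq (GRCh38.p14) for 23 of the 32 genes. The other 9 genes were PSAP, LGMN, ARSA, ASAH1, HEXA, HGSNAT, SGSH, NAGLU and MANBA. CACGTG occurred in the promoters of 5 of the 23 genes, ACP5, ARSB, GAA, GALNS and NEU1, whereas 8.77% of all 27305 promoters of the same length held it. TCACGTGA and the full palindrome of 10 bases, CACGTG with GT before and AC after it, each occurred in 2 of the 23, GAA and GALNS in both cases, against 1.18% and 0.421% of all promoters. The motifs are nested in each other and read the same on both strands, so that the longer matches are counted again among the shorter. GAA, which encodes the acid alpha-glucosidase that degrades glycogen, held the full palindrome at 2 places between bases -86 and -16 from its start site (chr17:80101495-80101565, plus strand). GALNS, which encodes a sulfatase of keratan sulfate, held the full palindrome once and CACGTG a second time between bases -184 and -17 (chr16:88856964-88857131, minus strand). The other 3 stretches are ARSB at chr5:78986103-78986128, NEU1 at chr6:31862932-31862957 and ACP5 at chr19:11577811-11577836, all on the minus strand. Capitals mark the longest motif found at each place, written 5′ to 3′ in the direction of the gene.
GAA: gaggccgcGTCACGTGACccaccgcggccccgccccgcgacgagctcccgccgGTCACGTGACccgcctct
GALNS: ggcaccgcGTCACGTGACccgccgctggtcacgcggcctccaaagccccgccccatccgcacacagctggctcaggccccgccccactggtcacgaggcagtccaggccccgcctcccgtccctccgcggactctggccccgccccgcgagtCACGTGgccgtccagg
ARSB: attcaataagCACGTGactaaaggat
NEU1: gctgcgtgatCACGTGggaggagatg
ACP5: ggctgctgcaCACGTGtgcccagatc
A match describes these letters only, and binding was not measured in this experiment.

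Of the 42 probes, 5 cross an intron, which means that their 60 bases match the joined exons of the transcript and span a longer stretch of the genome. They measure GALNS, the hexosaminidase subunit HEXA, PSAP, the alpha-mannosidase MAN2B1 and the asparaginyl endopeptidase LGMN, and 4 of them are shown because all 5 behaved alike between the replicates, as described further on. The genomic spans of these 4 in GRCh37, the build of the array files, are chr16:88880889-88884429 for GALNS, chr10:73578848-73579260 for PSAP, chr19:12760018-12760201 for MAN2B1 and chr14:93176171-93178016 for LGMN, all on the minus strand.
GALNS: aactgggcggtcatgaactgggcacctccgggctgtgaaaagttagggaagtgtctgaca
PSAP: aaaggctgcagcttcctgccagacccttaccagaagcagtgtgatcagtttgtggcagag
MAN2B1: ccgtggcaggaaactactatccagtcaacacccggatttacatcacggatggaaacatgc
LGMN: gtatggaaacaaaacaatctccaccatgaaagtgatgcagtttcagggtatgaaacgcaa

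Values are normalized log2 signals, that is the log2 of the background-subtracted intensity minus the median of the array, with the median taken over the probes of a gene. The array median was taken over probes with a positive signal alone, so it lies above the median of all probes. A difference of 1 is a 2-fold difference in signal. The level of a probe also depends on its sequence, so levels are compared between arrays and not between genes. The 4 arrays had 55.6% to 60.4% of their 58717 non-control spots well above background and no saturated spot. Replicate 3 had 2249 outlying spots against 514 to 725 on the others. Of the 8 epithelial marker genes, 7 were detected on all 4 arrays and VIL1 on none, while of 10 markers of leukocytes, endothelium and fibroblasts 5 (PTPRC, CD3E, VWF, CDH5 and COL1A1) were detected on all 4 arrays at mean levels from -2.07 to 2.91, CD14 was detected on 2 arrays, and PECAM1, COL3A1 and PDGFRB on none. Their part in the results was not tested. As RNA came from bulk cultures, fewer expressing cells and less RNA per cell cannot be told apart.

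Nearly all of the hydrolase genes were measurable in the treated cells. A gene counted as detected if any single probe for it exceeded background on each of the 4 arrays by the scanner software's flag. This was so for 31 of the 32 genes, compared with 52.5% of all gene names. The exception was GALC, the galactocerebrosidase that breaks down the myelin lipid galactosylceramide. Its downstream probe had background-subtracted intensities of -0.676, 5.81, 2.95 and -3.12 on replicates 1 to 4, and its other probe was below 0 on every array. Neither probe was well above background on any array. Mean levels were above the array median of probes with a positive signal in 29 of the 31 detected genes and in 77.2% of all detected genes. The other 2 were ARSB, the sulfatase of dermatan and chondroitin sulfate, with a mean of -1.03, and ACP5, the tartrate-resistant acid phosphatase, with a mean of -1.24. Centred on the median of all probes instead, ARSB was at 0.10, 0.04, 0.09 and -0.01 on replicates 1 to 4. ACP5 was then at -0.55, -0.15, 0.08 and -0.004.

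**Figure D1:**
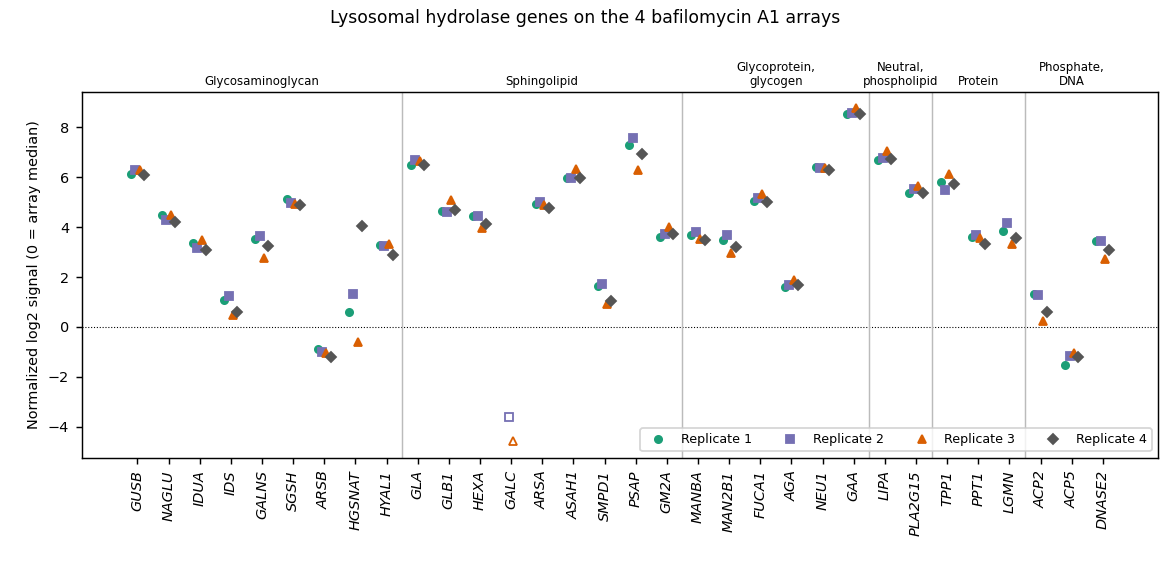
Normalized log2 signal (vertical axis, 0 is the array median of probes with a positive signal) of the 32 hydrolase genes by substrate class, with 1 point per replicate. Open points are arrays on which no probe of the gene was well above background; GALC had values on replicates 2 and 3 alone, at -3.59 and -4.57, and neither was well above background.

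The median spread of the hydrolase genes between replicates was near that of all detected genes. The SD between the 4 replicates had a median of 0.18 over the 31 detected genes (range 0.056 to 1.97) and of 0.21 over all 19083 detected genes. It lay between 0.1 and 0.25 for 19 of the 31 genes. These limits were near the 10th and 63rd percentiles of all detected genes. For 18 of the 31 genes the SD was below the median of all detected genes, which by definition has 50% of them below it. A span of more than 1.4-fold between replicates was found in 11 of the 31 genes (35.5%), against 46.4% of all detected genes. These 11 were IDS, GALNS, HGSNAT, SMPD1, PSAP, MAN2B1, TPP1, LGMN, ACP2, ACP5 and DNASE2. GLB1 and HEXA lay just under the limit at 1.39-fold and 1.38-fold. The order relative to all genes depended on the processing and on replicate 3. One alternative joined normexp background correction (offset 50) with quantile normalization and is called quantile normalization here. The parts of these 2 steps were not separated. After it the median SD was 0.13 for the hydrolases and 0.11 for all detected genes, and 25.8% of the hydrolases spanned more than 1.4-fold against 15.5% of all. Of the 11 genes named above, 7 remained over the limit after quantile normalization, and IDS, HGSNAT, TPP1 and ACP5 fell below it. HEXA then exceeded it, at 1.56-fold. Without replicate 3 the median SDs were 0.16 and 0.15, and 7 of the 31 genes spanned more than 1.4-fold against 21.9% of all.

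**Figure D2:**
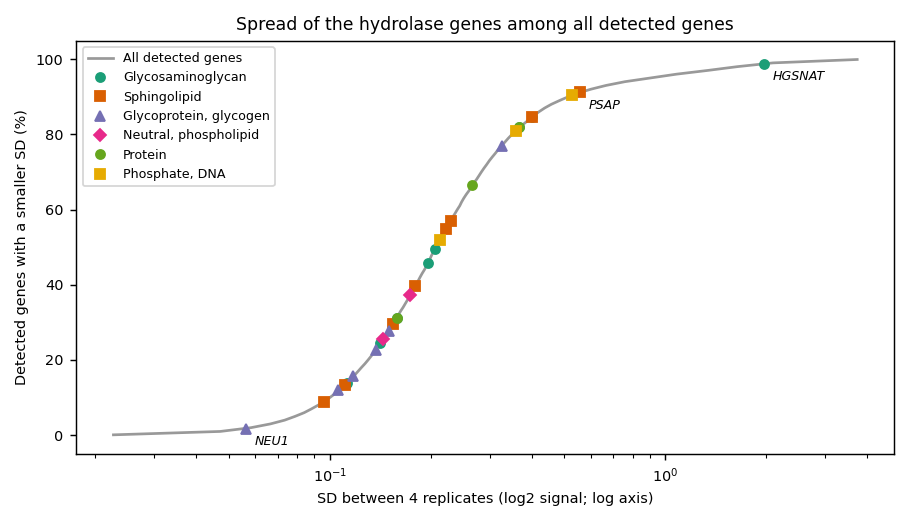
Percentage of all 19083 detected genes with a smaller SD (vertical axis) against the SD of the normalized log2 signal between the 4 replicates (horizontal log axis). The grey line is the distribution of all detected genes and the points are the 31 detected hydrolase genes by class, which run from NEU1 with an SD of 0.056 to HGSNAT with 1.97.

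Glycosaminoglycan degradation needs, among other enzymes, exo-glycosidases, sulfatases and 1 acetyltransferase that act in turn from the end of the chain. All 9 genes of the class passed detection. Their median SD was 0.20, and 3 spanned more than 1.4-fold. GUSB, the beta-glucuronidase often used as a reference gene, was measured at 6.14, 6.28, 6.30 and 6.07 on replicates 1 to 4 (SD 0.11, n = 4). It was printed as 10 spots per array, which varied with a median SD of 0.21 within an array and gave the array mean a median standard error of 0.066. The heparan sulfate enzymes NAGLU and IDUA had mean levels of 4.37 ± 0.16 and 3.27 ± 0.20 (SD, n = 4). HYAL1, which cuts hyaluronan, was at 3.29, 3.24 and 3.31 on replicates 1 to 3 and at 2.87 on replicate 4, so that replicate 4 lay apart below the other 3.

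Sulfatases take the sulfate group off before the next sugar can be removed, and the list holds 5 of them, with a median SD of 0.14. SGSH, the sulfamidase of heparan sulfate, was at 5.14, 4.98, 4.92 and 4.89 (SD 0.11). ARSA, which acts on the sphingolipid sulfatide, was at 4.91, 5.01, 4.90 and 4.77 (SD 0.096). ARSB was at -0.89, -0.99, -1.03 and -1.23 (SD 0.14). All 3 thus spanned less than 1.4-fold. GALNS behaved otherwise, with 3.54, 3.66, 2.76 and 3.23 (SD 0.40), a span of 1.87-fold with replicate 3 lowest. IDS, the iduronate 2-sulfatase, was at 1.06, 1.25, 0.48 and 0.61 (SD 0.37), and replicates 3 and 4 lay below replicates 1 and 2.

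The value of IDS combines 4 probes that differed between the arrays. The most upstream probe and the one nearest the 3′ end are annotated to 1 transcript, and the 2 between them to another. The probe nearest the 3′ end gave 4.98, 5.11, 5.11 and 4.82, with replicate 3 as high as replicate 2. The most upstream of the probes gave 1.17, 1.32, 0.50 and 0.49, and the next gave 0.96, 1.18, 0.46 and 0.72, so that both were lower on replicates 3 and 4 than on replicates 1 and 2. The third gave -1.37, -1.05, -1.57 and -1.97 and was not well above background on replicate 4. The drop of IDS on replicate 3 therefore came from the upstream probes and was absent from the probe nearest the 3′ end.

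HGSNAT, the membrane enzyme that acetylates heparan sulfate before NAGLU can act, had the largest SD of the list, 1.97, with values of 0.61, 1.32, -0.59 and 4.05 and a span of 4.64 on the log2 scale. Its downstream probe, printed as 10 spots (median SD 0.096 within an array, median standard error of the array mean 0.032), gave 4.11, 4.15, 4.41 and 4.05 (SD 0.16) and was well above background on all 4 arrays. Its upstream probe gave -2.89, -1.51 and -5.59 on replicates 1 to 3, where it was well above background on replicate 2 alone, and a signal below 0, hence no log2 value, on replicate 4. The median over probes was therefore taken over both probes on replicates 1 to 3 and over the downstream probe alone on replicate 4, and the span follows from that rule. The number of probes with a value differed between arrays in 1607 of the 19083 detected genes.

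Sphingolipids are dismantled by glycosidases, a sulfatase, a ceramidase and a sphingomyelinase, several of which need small activator proteins to lift the lipid from the membrane. Detection held for 8 of the 9 genes, all but GALC, with a median SD of 0.20, and 2 spanned more than 1.4-fold. GLA, the alpha-galactosidase that is missing in Fabry disease, was at 6.48, 6.67, 6.66 and 6.47 (SD 0.11). GLB1, the acid beta-galactosidase, was at 4.66, 4.62, 5.10 and 4.69, and ASAH1, the acid ceramidase, was at 5.97, 5.96, 6.32 and 5.96. In both genes replicate 3 lay apart above 3 closely placed replicates. HEXA had 4.43, 4.44, 3.98 and 4.13 (SD 0.23), with replicate 3 lowest. SMPD1, the acid sphingomyelinase, was at 1.64, 1.70, 0.92 and 1.04 (SD 0.40), again with replicates 3 and 4 below replicates 1 and 2.

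PSAP encodes prosaposin, the precursor that is cut into the saposins. It showed the largest span after HGSNAT, 2.45-fold, with 7.29, 7.57, 6.28 and 6.91 (SD 0.56). Its upstream probe, which crosses an intron, gave 6.39, 6.78, 5.15 and 5.95, and its downstream probe gave 8.18, 8.37, 7.42 and 7.88. Both probes thus had the same order of replicates, with replicate 3 lowest, and the upstream probe varied more (SD 0.70 against 0.41). GM2A, the activator that presents ganglioside GM2 to hexosaminidase A, was at 3.62, 3.74, 3.99 and 3.74 (SD 0.15), with replicate 3 highest.

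The 6 genes for glycoproteins and glycogen all passed detection and had the lowest median SD of the classes, 0.13, with 1 gene over 1.4-fold. NEU1, the sialidase that takes off terminal sialic acid, had the smallest SD of the list, 0.056, with 6.42, 6.37, 6.38 and 6.29. That rank depended on the processing. GUSB had the smallest SD with the software's processed signal, 0.027, and FUCA1 after quantile normalization, 0.016, where NEU1 was at 0.12. GAA was at 8.55, 8.58, 8.77 and 8.55 (SD 0.11), and replicate 3 lay apart above the others. MANBA, FUCA1 and AGA, which remove mannose, fucose and the link to asparagine, had mean levels of 3.64 ± 0.15, 5.13 ± 0.14 and 1.71 ± 0.12 (SD, n = 4). MAN2B1, which cleaves alpha-linked mannose, was the gene that exceeded the limit, with 3.48, 3.70, 2.95 and 3.20 (SD 0.33) and replicate 3 lowest. FUCA1 was printed as 10 spots per array, which varied with a median SD of 0.14 within an array and gave the array mean a median standard error of 0.044.

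Neutral lipids and phospholipids are represented by LIPA, the acid lipase of cholesteryl esters and triglycerides, and PLA2G15, the lysosomal phospholipase A2. LIPA was at 6.67, 6.77, 7.07 and 6.75 (SD 0.17), and PLA2G15 was at 5.38, 5.54, 5.66 and 5.35 (SD 0.14). Both spanned less than 1.4-fold and were highest on replicate 3, although PLA2G15 was highest on replicate 2 after quantile normalization.

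Of the 3 genes for proteins and lipid-modified proteins, 2 exceeded 1.4-fold. TPP1, the tripeptidyl peptidase, was at 5.80, 5.50, 6.15 and 5.75 (SD 0.27), with replicate 3 highest. Its 2 probes did not move together: the upstream probe gave 8.03, 7.59, 7.86 and 8.02, lowest on replicate 2, and the downstream probe gave 3.58, 3.42, 4.44 and 3.48, far higher on replicate 3 than elsewhere. PPT1, which removes palmitate from proteins, was at 3.60, 3.70, 3.56 and 3.32 (SD 0.16), but this small spread was that of a mean between a downstream probe highest on replicate 3 (6.43, 6.68, 6.83 and 6.55) and an upstream probe lower on replicates 3 and 4 (0.76, 0.72, 0.29 and 0.10). LGMN was at 3.86, 4.18, 3.32 and 3.58 (SD 0.37), with replicate 3 lowest.

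The 3 genes for phosphate esters and nucleic acids all exceeded 1.4-fold and had the highest median SD of the classes, 0.36. ACP2, the lysosomal acid phosphatase, was at 1.30, 1.30, 0.25 and 0.59 (SD 0.53), a span of 2.07-fold. Its 2 probes match different transcripts, and replicate 3 was the lowest on 1 of them (2.15, 2.06, 0.77 and 1.86) and replicate 4 on the other (0.46, 0.53, -0.26 and -0.68). DNASE2, which degrades DNA that reaches the lysosome, was at 3.46, 3.46, 2.71 and 3.09 (SD 0.36). ACP5 was at -1.54, -1.17, -1.04 and -1.22 (SD 0.21), just past the limit at 1.42-fold, and was lowest on replicate 1. The difference of 0.23 between the highest and lowest class medians rests on classes of 2 to 9 genes, and without replicate 3 it was 0.14.

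The same replicate stood out in most of the variable genes. Of the 11 genes that spanned more than 1.4-fold, replicate 3 was lowest in 9, against 29.7% of all detected genes over that limit, and highest in the other 2, TPP1 and ACP5, against 47.1%. HGSNAT is among the 9 only through its upstream probe, which was not well above background on replicate 3. Its downstream probe was highest on that array, at 4.41, and had an SD of 0.16. In 7 of the 11, replicate 2 was the highest and replicate 3 the lowest, an order found in 15% of all detected genes over the limit. Over all 31 genes replicate 3 was highest in 14 (48.5% of all detected genes) and lowest in 10 (23.2%), replicate 2 was highest in 12 (25.3%), and replicate 4 was lowest in 13 (35.1%). On replicates 3 and 4 the median detected gene itself deviated, by 0.10 and -0.10, and the genes are to be read against that shift. The balance of 14 to 10 turned with the processing. It was 10 highest and 13 lowest with the processed signal and 7 and 16 after quantile normalization. Of the 9 variable genes, 9 and 8 remained lowest on replicate 3 in these settings, HGSNAT being the exception after quantile normalization. The count of genes lowest on replicate 4 fell from 13 to 3 with the processed signal, to 3 with centring over all probes and to 6 after quantile normalization. By Dixon's ratio, which compares the gap of the outermost replicate with the whole range, 1 array lay apart in 4 of the 31 genes, HYAL1, GLB1, ASAH1 and GAA, against 8.48% of all detected genes. With the processed signal none of these 4 passed, but GLA and ARSB did. After quantile normalization no gene of the list passed, and replicate 3 was the lowest for GAA. The mean over the 31 genes deviated by 0.03, 0.11, -0.11 and -0.04 on replicates 1 to 4, an SD of 0.092, and without HGSNAT by 0.06, 0.11, -0.04 and -0.13, an SD of 0.11.

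**Figure D3:**
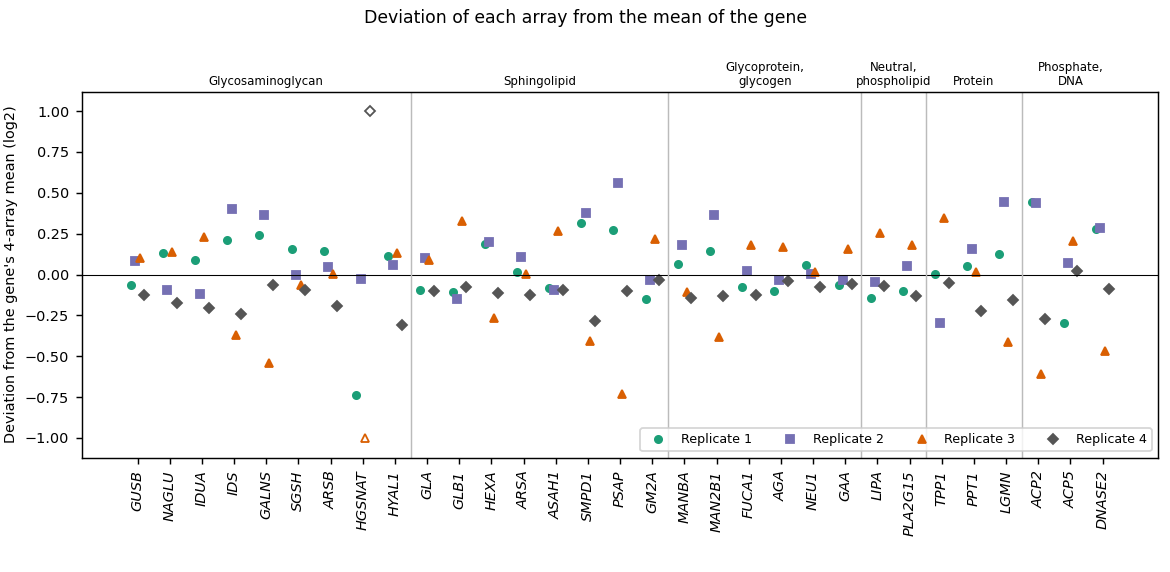
Deviation of each replicate from the 4-array mean of the gene (vertical axis, log2) for the 31 detected hydrolase genes by class. Open points at the edges are HGSNAT on replicates 3 and 4, whose values lie beyond the axis; replicate 3 is lowest in IDS, GALNS, HGSNAT, HEXA, SMPD1, PSAP, MAN2B1, LGMN, ACP2 and DNASE2 and highest in 14 genes, TPP1 among them.

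Replicate 3 had a position-dependent signal within the transcripts of these genes. In 5 of them, GM2A, IDS, PPT1, PSAP and TPP1, 2 detected probes lay at least 300 bases apart on the same transcript. The deviation of the upstream probe minus that of the downstream probe on replicate 3 was -0.48 for IDS, -0.38 for PPT1, -0.38 for PSAP and -0.72 for TPP1, but 0.17 for GM2A. On replicates 1 and 2 it was above 0 in IDS, PPT1, PSAP and TPP1, from 0.02 for TPP1 on replicate 2 to 0.48 for PPT1 on replicate 1. On replicate 4 it was -0.20 for IDS, -0.29 for PPT1, -0.04 for PSAP and 0.40 for TPP1. Replicate 3 was the lowest of the 4 in 4 of the 5 genes, and in 64.8% of all 2384 such pairs on the array, whose medians were 0.11, 0.13, -0.23 and 0.00 on replicates 1 to 4. After quantile normalization the median over all pairs on replicate 3 was -0.16, with replicate 3 lowest in 61.4% of the pairs. IDS, PSAP and TPP1 were then at -0.20, -0.36 and -0.71 and remained lowest on replicate 3, whereas PPT1 was at -0.12 on replicate 3 and lower, at -0.14, on replicate 4. What part this position dependence had in the spread of the hydrolase genes was not tested.

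**Figure D4:**
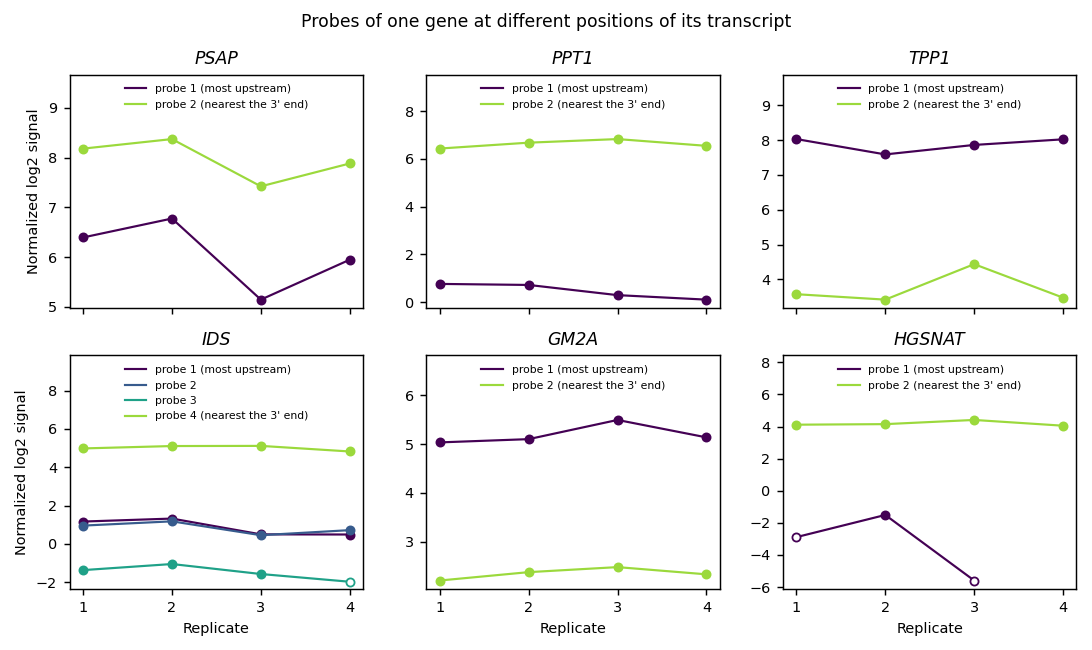
Normalized log2 signal of each probe (vertical axis) on the 4 replicates (horizontal axis) for 6 genes with more than 1 probe, ordered from the most upstream probe to the one nearest the 3′ end. Open points were not well above background; on replicate 3 the upstream probes of PSAP, IDS and PPT1 lie below their values on replicates 1 and 2, as does the PSAP probe nearest the 3′ end, whereas the probes nearest the 3′ end of PPT1, IDS, TPP1, GM2A and HGSNAT do not.

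**Figure D5:**
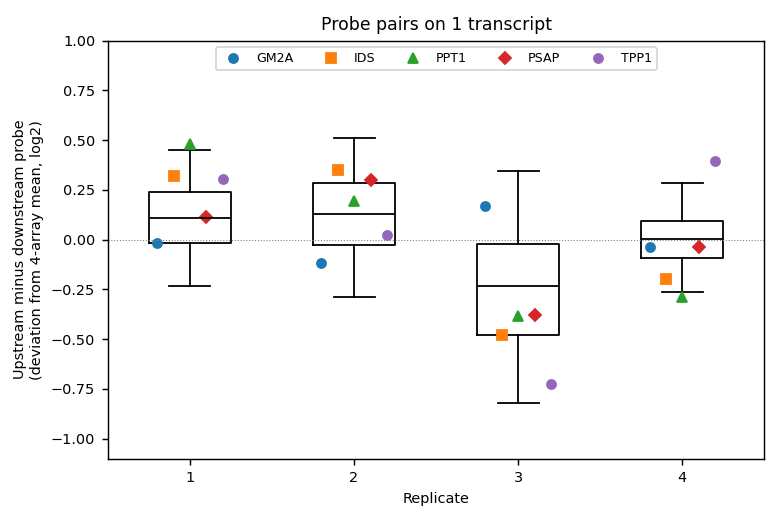
Deviation of the upstream probe minus that of the downstream probe of a transcript (vertical axis, log2) on each replicate (horizontal axis). Boxes show the median and quartiles and whiskers the 5th and 95th percentiles of 2384 pairs on the array, and coloured points are the 5 hydrolase genes; on replicate 3 the median pair is at -0.23 and 4 of the 5 hydrolase genes are below it.

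The 5 intron-crossing probes named above were all lowest on replicate 3, with a median deviation of -0.41 on that array. Of the 33 other detected hydrolase probes, 15.2% were lowest on replicate 3, with a median deviation of 0.11. Over all detected probes on the array, replicate 3 was lowest in 32.5% of 2200 intron-crossing probes and in 22.6% of 21994 probes within 1 exon, with median deviations of 0.01 and 0.11. For 3 genes over the 1.4-fold limit, an intron-crossing probe is the sole measure, namely GALNS, MAN2B1 and LGMN. Crossing an intron was not separated from position along the transcript, and the part of each was not tested.

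Related lysosomal genes were measurable to a like degree. Of all gene names on the array 52.5% were detected, and 46.4% of the detected genes spanned more than 1.4-fold. Of 19 other lysosomal hydrolases 18 were detected (median SD 0.23, 9 over 1.4-fold), and PLBD1 was detected on no array. All 9 genes for enzyme delivery and activation were detected (median SD 0.24, 5 over 1.4-fold), as were 10 of 12 cathepsins (0.21, 5 over), with CTSS and CTSW detected on no array. Of 19 lysosomal membrane proteins 18 were detected, all but LAPTM5 (median SD 0.16, 6 over 1.4-fold). Of the 4 MiT/TFE factors 3 were detected (median SD 0.10), and TFEC was well above background on 2 arrays. Replicate 3 was the highest in 10 of the 18 other hydrolases, 5 of the 9 delivery genes, 6 of the 10 cathepsins and 11 of the 18 membrane proteins, and the lowest in 3, 3, 4 and 3 of them. For the genes described here these counts were 14 and 10 of 31. Over all detected genes the shares were 48.5% and 23.2%, and no difference between the lists was tested.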

How the data were processed

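The authors deposited the scanner output of each array as Agilent Feature Extraction 10.7.3.1 wrote it (version per the submitters' notes). These deposited intensities were background-subtracted by the software before deposit, are linear and were not normalized between arrays. A flag in the same output marks spots well above background. Here control spots and spots flagged as outliers were dropped and replicate spots of a probe averaged. As in the study's methods, values were put on the log2 scale (none exists at or below 0), centred on the array median, here of non-control probes with a positive signal, and summarised per gene by the median probe. Detection of a probe on an array required the flag on more than 50% of its spots. Spread was given as SD and as span past 1.4-fold; Dixon's ratio marked genes with 1 array apart (critical value 0.829). With 1 group no test between groups was made, and the number of arrays limits the precision. The serum in the study's methods differs from that in the labels.

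Members and gene lists were chosen with earlier results of these data known. Every array's value is given for genes not detected, with probes that differ in detection, with 1 array apart, with the 5 largest and 5 smallest SDs, for the 5 sulfatases and for at least 2 genes per class. As alternatives, the software's processed signal with 75th-percentile centring, normexp (offset 50) with quantile normalization in limma 3.58.1, other probe and detection rules, retained outliers, centring over all probes, and omission of each array were run. Pairs of probes were at least 300 bases apart on 1 transcript. Scripts used Python 3.11.15, numpy 2.4.6, pandas 2.3.3, scipy 1.17.1, matplotlib 3.10.9 and R 4.3.3, and were tested on simulated data. The sequence of 1 probe and the values of 1 marker gene are not reported here.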

Additional observations from a re-analysis of the deposited data

Results flagged for a closer look

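In 4 of the 31 detected genes 1 replicate was separated from the other 3 by a gap that exceeded the critical share of the whole range. Chance alone gives this for about 1 gene in 20 (5%), and 8.48% of all 19083 detected genes on these arrays passed. HYAL1 was at 2.87 on replicate 4, below the others. On replicate 3, GLB1 was at 5.10, ASAH1 at 6.32 and GAA at 8.77, each above the others. None of the 4 passed with the processed signal, after quantile normalization or with centring over all probes. With the processed signal 2 other genes, GLA and ARSB, passed. These flags were not weighed further, and their cause was not tested.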

How the results depend on the processing

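No paired analysis was possible because array files of the treated group alone were used. The number of detected genes, 31, was the same under the alternatives that recompute it. Omission of an array could not change it, since that only loosens the rule and GALC was well above background on no array. The median SD of 0.18 moved to 0.148 with the processed signal and to 0.132 after normexp and quantile normalization; the cause was not tested. Leaving out single replicates gave a median SD from 0.159 to 0.21, a count over 1.4-fold from 7 without replicate 3 to 11, an SD of the mean over the genes from 0.0691 without replicate 2 to 0.109, and a difference between class medians from 0.141 without replicate 3 to 0.299 without replicate 4. The remaining alternatives left these 4 values within their tolerance. For the count this was a ratio of up to 1.5, which took in 8 after quantile normalization and 14 with centring over all probes. For the others it was the SD of the values obtained without each replicate. By the same measure the SDs of single genes moved in 18 of 31 after quantile normalization and in 18 without replicate 3. They moved in 13 with centring over all probes, and in fewer genes under every other setting. The class of phosphate esters and nucleic acids had the highest median SD except with centring over all probes and with the probe nearest the 3′ end, where the protein class did. Genes for glycoproteins and glycogen had the lowest except after quantile normalization, where neutral lipids did, and with centring over all probes or without replicate 4, where glycosaminoglycans did. The SD of HGSNAT fell from 1.97 to 0.158 with probes well above background on all 4 arrays. The probe nearest the 3′ end and leaving out HGSNAT were chosen after seeing the data. Probes near background limit the measure, since a signal of 0 or less gives no log2 level.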
